A study of Homo sapiens with 4 samples.

Results

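The kinetochore and spindle checkpoint genes described here are 42 genes chosen by name, out of 58226 gene IDs in the files, and matched through the GENCODE 29 annotation. They fall into 6 groups, which are the centromere proteins named CENP (16 genes), the NDC80 complex (4), the MIS12 complex with its KNL1 partners (6), the checkpoint itself (7), the SKA complex (3) and the chromosomal passenger complex with the shugoshins (6). RNA-seq was made from U87MG, an established human glioblastoma cell line, and from R-U87MG, its temozolomide (TMZ)-resistant derivative, which is kept in TMZ. R-U87MG cells received a non-targeting control siRNA (si-NC) or an siRNA against HDAC6, a largely cytoplasmic deacetylase (si-HDAC6), and U87MG cells received si-NC or an siRNA against the long non-coding RNA *LINC00461* (si-*LINC00461*). All 4 cultures were thus transfected, and the 2 R-U87MG cultures also carry the selected resistance. There was 1 library per condition, so no difference between conditions could be tested. Each ratio below is given with a 95% exact binomial interval that covers the counting error of 2 libraries and not the spread between cultures.

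The libraries held 16639551 (R-U87MG si-NC), 12596072 (R-U87MG si-HDAC6), 20027866 (U87MG si-NC) and 17777046 (U87MG si-*LINC00461*) counts. HDAC6 had 296 counts with si-NC and 67 with si-HDAC6 in R-U87MG, and *LINC00461* had 363 counts with si-NC and 73 with si-*LINC00461* in U87MG, so both targets were lower in the library labelled with their siRNA. *LINC00461* had 154 counts in R-U87MG with si-NC and 80 with si-HDAC6. The 6 mesenchymal glioblastoma markers (VIM, CD44, NES, FN1, CAV1 and S100A6) summed to between 11170 and 15906 CPM (counts scaled to the library total). Within the U87MG pair they moved in different directions, with log2 ratios (si-*LINC00461* over si-NC) of −0.98 for VIM (126719 and 56351 counts), −0.76 for CAV1 and 1.12 for FN1 (92828 and 177341 counts), and their part in the results was not tested. Of the astrocyte and neural stem list, AQP4 was at 0 in all libraries and GFAP, S100B and SOX2 did not exceed 13 counts in any library. The remaining gene of that list, OLIG2, had between 15 and 115 counts. Of 10 markers of blood, endothelial, epithelial, neuronal and oligodendrocyte cells, RBFOX3 and PTPRC had at most 3 counts. Others were counted more, among them the neuronal gene SYT1, with 38 (R-U87MG si-NC), 19 (R-U87MG si-HDAC6), 146 (U87MG si-NC) and 195 (U87MG si-*LINC00461*) counts. The epithelial gene KRT18 had 16, 10, 44 and 76 counts in the same order. The list summed to 9.20 and 7.70 CPM in the R-U87MG libraries, 16.5 CPM in U87MG si-NC and 43.9 CPM in U87MG si-*LINC00461*. The endothelial gene PECAM1, with 52 and 433 counts in the U87MG pair, held most of the last difference, whose part in the results was not tested.

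The kinetochore is the protein assembly through which a chromosome is pulled by spindle microtubules. The histone variant CENPA marks the centromere, a network of CENP proteins sits on that chromatin, and the MIS12 complex links this network to KNL1 and to the NDC80 complex, which binds microtubules. As long as kinetochores are unattached, checkpoint proteins gathered on KNL1 hold back the anaphase-promoting complex, and Aurora B in the passenger complex releases faulty attachments. In dividing cells the transcripts of many of these genes accumulate in G2 and mitosis under the DREAM, MYB-MuvB and FOXM1 regulators, whereas other subunits are transcribed throughout the cycle. In RNA from whole cultures, fewer dividing cells and less RNA per dividing cell cannot be told apart.

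The genes as a group were lowest in U87MG treated with si-*LINC00461*. Their counts summed to 2491 CPM (95% interval 2467 to 2515) in R-U87MG si-NC, 2134 CPM (2108 to 2160) in R-U87MG si-HDAC6, 1234 CPM (1219 to 1250) in U87MG si-NC and 423 CPM (413 to 432) in U87MG si-*LINC00461*. Per length, in TPM (counts per length, scaled to the same sum in each library), the median gene was at 43.7, 37.9, 20.7 and 6.17 in the same order. Of the 42 genes, 34 had their highest CPM in R-U87MG si-NC, 6 in R-U87MG si-HDAC6 and 2 in U87MG si-NC, and 38 had their lowest in U87MG si-*LINC00461*. SPC25 and SKA1 were hardly counted at all. SPC25 had 5, 3, 3 and 0 counts and SKA1 had 0, 1, 0 and 0. SKA1 is therefore listed at 0 in 3 libraries in which its partners SKA2 and SKA3 had many counts, and since the values are estimates a listed 0 can be a failed estimate. The other 40 genes had a mean of at least 1 CPM in every comparison and were compared.

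**Figure D1:**
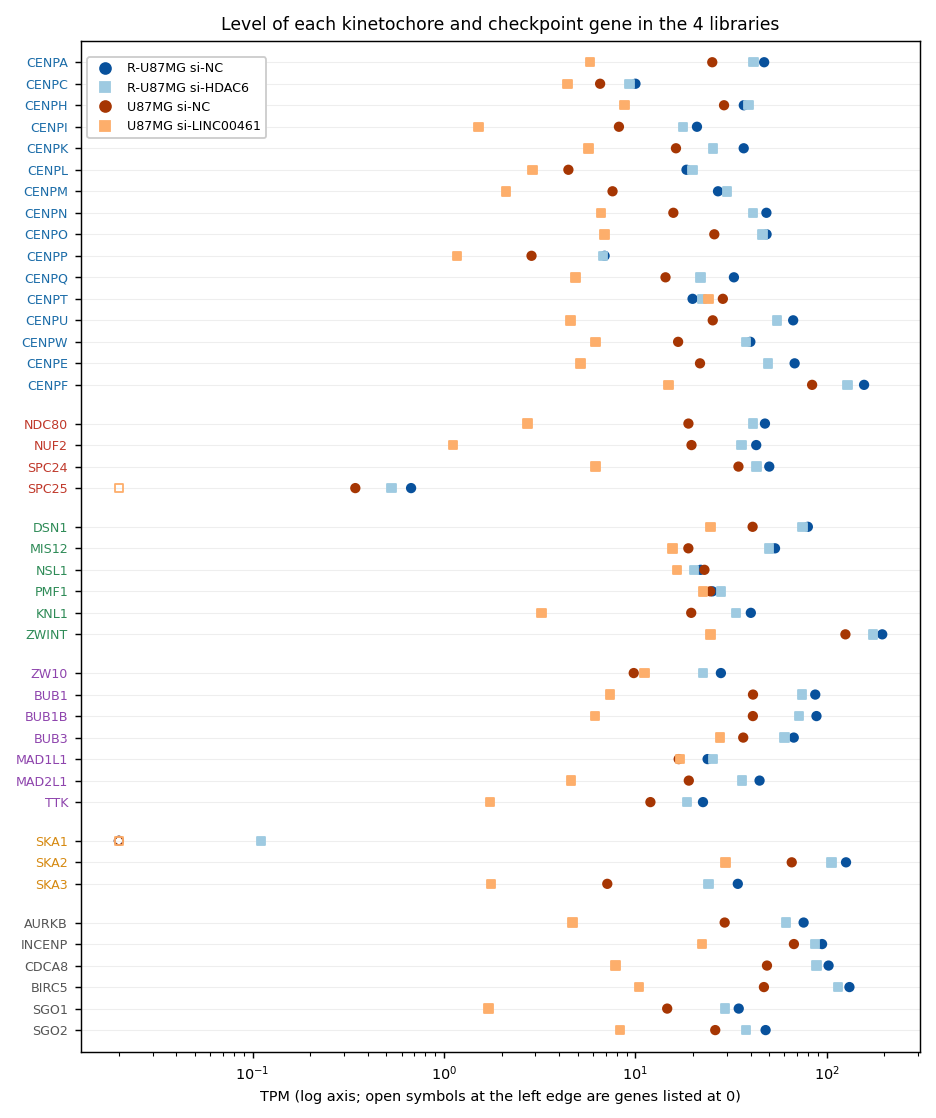
Level of each of the 42 genes in TPM (log axis), with 1 point per library and genes coloured by group. In most rows the 2 R-U87MG libraries lie to the right and U87MG si-LINC00461 to the left, while CENPT, PMF1, NSL1 and MAD1L1 have their 4 points close together.

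After si-*LINC00461* in U87MG, 38 of the 40 genes had a ratio below 0, 30 of them by 2-fold or more, and 0 were 2-fold or more higher. Over all 13210 genes with enough counts, 50.2% were lower by any amount, 8.17% by 2-fold or more, and 5.42% were higher by 2-fold or more. The median log2 ratio of the 40 genes was −1.82, and that of all genes was −0.0026. For 25 of the genes the whole interval lay beyond 2-fold lower, as it did for 4.78% of all genes, and for 36 it lay below 0, as it did for 33.4% of all genes. The ratios ran from −4.06 for NUF2, the 4th lowest of all genes compared, to 0.23 for ZW10. The genes nearest to 2-fold on either side were SKA2 at −1.11 and DSN1 at −0.69. The 10 genes short of 2-fold were CENPC, CENPL, CENPT, DSN1, MIS12, NSL1, PMF1, BUB3, MAD1L1 and ZW10, so 3 of the 16 CENP genes, 4 of the 6 genes of the MIS12 group and 3 of the 7 checkpoint genes fell short, and 0 compared genes of the NDC80, SKA and passenger groups did. Across the 40 genes the ratio and the log2 TPM in U87MG si-NC had a Spearman correlation of −0.22, over genes that share the same 2 libraries. U87MG si-NC is also the denominator of the ratio, so its counting error enters both values, and the correlation is no test of level.

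**Figure D2:**
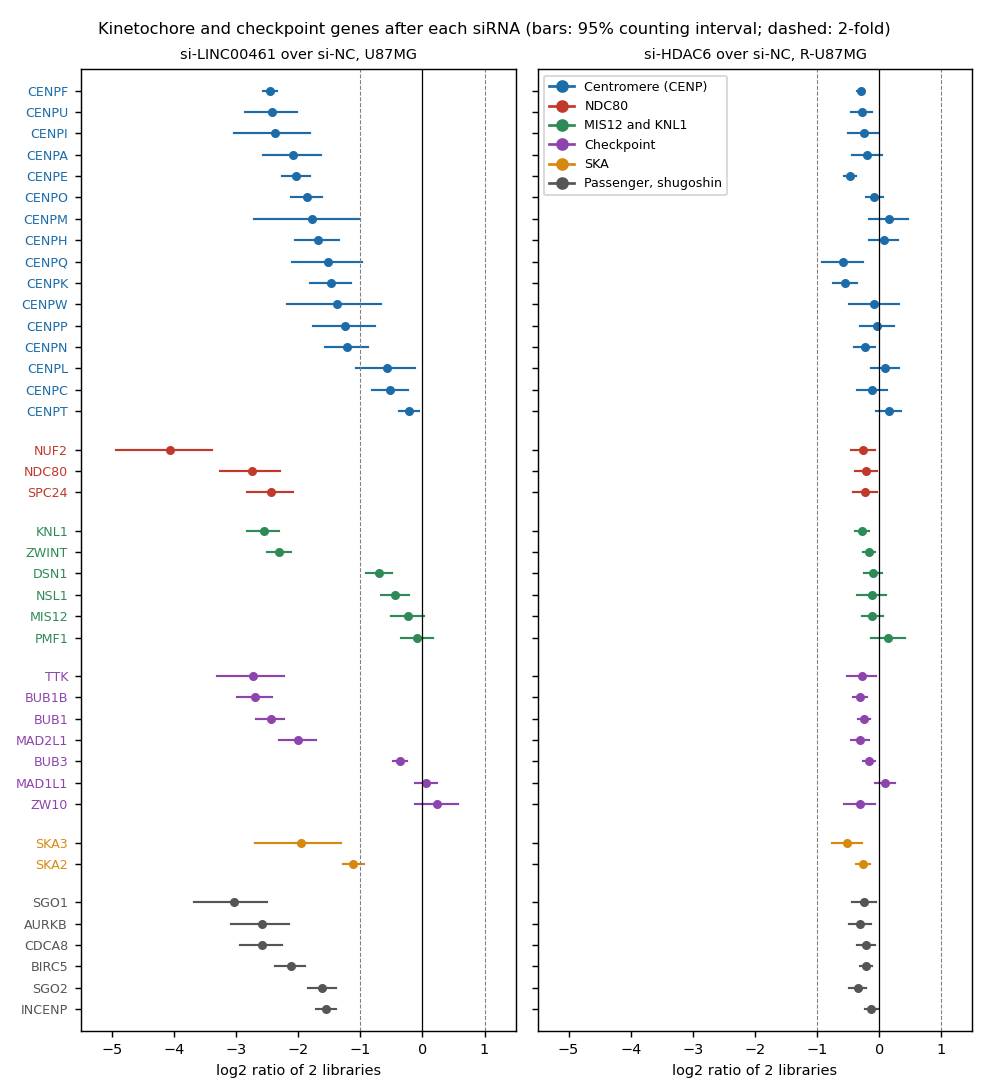
Log2 ratio of each compared gene after si-LINC00461 in U87MG (left) and after si-HDAC6 in R-U87MG (right). Points are ratios of 2 libraries, bars their 95% counting intervals and dashed lines 2-fold. On the left 30 of 40 points lie beyond the lower dashed line, and on the right 0 do.

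**Figure D3:**
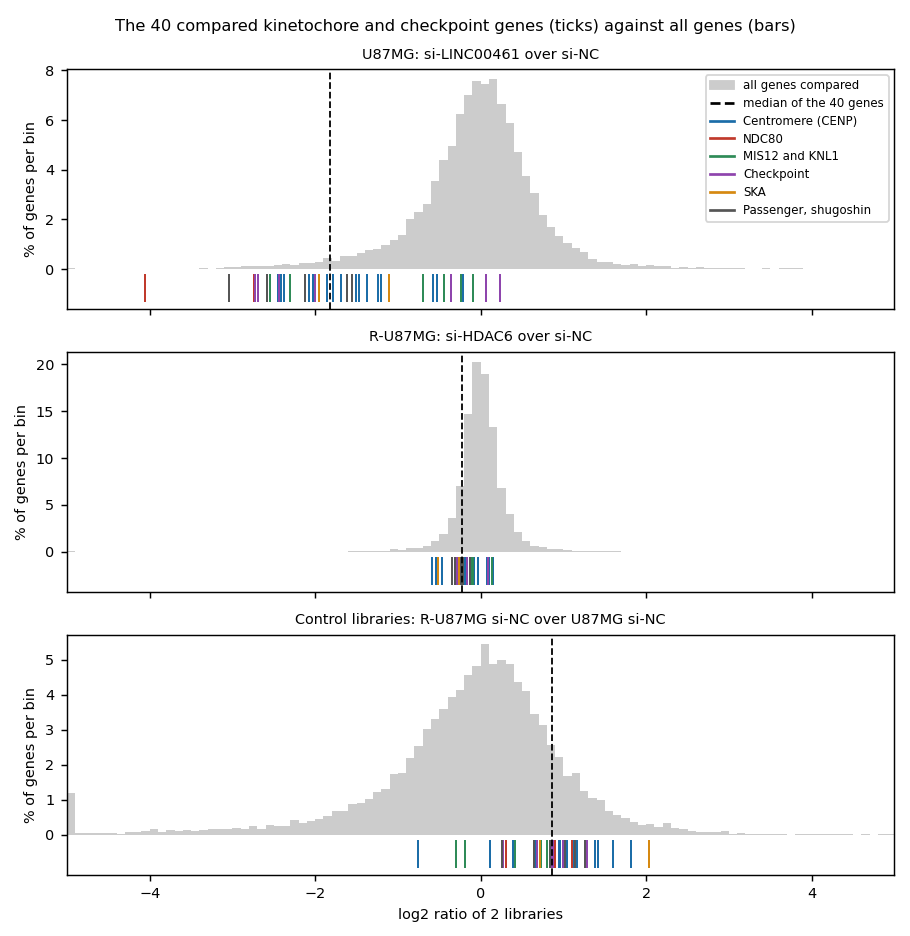
Log2 ratios of the 40 genes (ticks, coloured by group, with the median dashed) under the distribution of all compared genes in bins of 0.1 (grey bars, per cent of genes per bin, outermost bins holding all values beyond them) for the 3 comparisons. The median tick lies at −1.82, −0.22 and 0.86, and the bars centre near 0 in each panel.

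Sequence was looked at in the promoters, because genes of this kind that peak in mitosis often carry a cell cycle genes homology region (CHR) near the start. RefSeq promoters (GRCh38.p14, 250 bases before to 50 after each start) were found for 35 of the 42 genes, and the table used here held no entry for CENPH, CENPL, CENPM, KNL1, BUB3, TTK and BIRC5. On both strands, the motifs searched were TTTGAA (the CHR core), CCAAT (the box bound by NF-Y) and GCGGGAA (a core of the E2F site). The following 150 bases run from 120 before to the first 30 of the gene, 5′ to 3′ on the strand of the gene, with matches of the CHR core and of CCAAT in either orientation in capitals. The leading 6 belong to genes at least 2-fold lower after si-*LINC00461* that hold a CHR core near the start, and MIS12 and MAD1L1 are shown against them as genes of the same machinery that were less than 2-fold lower or not lower. MIS12 and MAD1L1 hold no CHR core. Genes at least 2-fold lower without the core, among them BUB1, AURKB and SGO1, are not shown. CENPC and ZW10, which hold the core and were not at least 2-fold lower, are not shown either. In CDCA8 the CHR core and one CCAAT match overlap.
NUF2: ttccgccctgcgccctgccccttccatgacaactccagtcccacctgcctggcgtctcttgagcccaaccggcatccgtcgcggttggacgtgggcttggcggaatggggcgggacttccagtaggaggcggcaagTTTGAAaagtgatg
NDC80: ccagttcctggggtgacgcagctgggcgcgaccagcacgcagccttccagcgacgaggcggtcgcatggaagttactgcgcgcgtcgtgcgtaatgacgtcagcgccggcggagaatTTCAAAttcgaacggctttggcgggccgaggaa
CENPA: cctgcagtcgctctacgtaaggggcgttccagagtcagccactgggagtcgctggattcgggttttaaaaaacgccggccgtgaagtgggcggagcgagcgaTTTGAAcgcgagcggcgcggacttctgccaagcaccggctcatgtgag
BUB1B: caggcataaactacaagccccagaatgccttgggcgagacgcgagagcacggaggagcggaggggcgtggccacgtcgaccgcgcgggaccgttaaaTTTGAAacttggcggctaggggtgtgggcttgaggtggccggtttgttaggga
CDCA8: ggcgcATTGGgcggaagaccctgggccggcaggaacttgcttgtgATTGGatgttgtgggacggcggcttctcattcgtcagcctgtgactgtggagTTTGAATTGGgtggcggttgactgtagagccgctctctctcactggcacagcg
ZWINT: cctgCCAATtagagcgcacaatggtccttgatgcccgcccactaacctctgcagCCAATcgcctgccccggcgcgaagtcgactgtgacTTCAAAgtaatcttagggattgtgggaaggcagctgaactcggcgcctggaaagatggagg
MIS12: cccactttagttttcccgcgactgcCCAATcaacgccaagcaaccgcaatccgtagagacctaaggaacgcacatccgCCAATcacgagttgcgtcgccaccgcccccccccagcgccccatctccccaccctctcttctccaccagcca
MAD1L1: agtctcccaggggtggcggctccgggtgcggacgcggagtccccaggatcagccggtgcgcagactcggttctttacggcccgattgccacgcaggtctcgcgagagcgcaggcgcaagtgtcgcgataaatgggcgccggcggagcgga

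The stretches are NUF2 at chr1:163321834-163321983 on the plus strand, NDC80 at chr18:2571437-2571586 on the plus strand, CENPA at chr2:26785936-26786085 on the plus strand, BUB1B at chr15:40160949-40161098 on the plus strand, CDCA8 at chr1:37692396-37692545 on the plus strand, ZWINT at chr10:56361230-56361379 on the minus strand, MIS12 at chr17:5486254-5486403 on the plus strand and MAD1L1 at chr7:2232916-2233065 on the minus strand.

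The CHR core was found in the 300-base promoters of 16 of the 35 genes (45.7%), against 18.2% of all genes in the promoter table. CCAAT was found in 23 (65.7%), against 39.7%, and GCGGGAA in 6 (17.1%), against 7.82%. Among the protein-coding genes of the table alone, the shares were 15.8% for the CHR core, 42.3% for CCAAT and 10.6% for GCGGGAA. In 14 of the 16 genes a CHR core began between 31 bases before and 41 after the start, a range read from these genes. The 12 of these that were compared were all at least 2-fold lower after si-*LINC00461*, and the other 2, SKA1 and SPC25, were too low to compare. The remaining 2 of the 16, CENPC with its match 90 bases before the start and ZW10 with its match 224 bases before, were not at least 2-fold lower. The range was read from these genes and leaves out CENPC and ZW10, so this split is no test of position. With the core anywhere in the window, 12 of 14 compared genes (85.7%) were at least 2-fold lower, against 75% of all 40 compared genes. Of the 19 compared genes without the core, 13 were also at least 2-fold lower, among them BUB1, AURKB and SGO1, and the medians of genes with and without it were −2.04 and −1.47. By median the other motifs went the other way, with −1.58 and −1.95 with and without CCAAT, and −0.72 (4 genes) and −1.95 with and without GCGGGAA. By the share at least 2-fold lower, CCAAT went the same way as the CHR core, with 18 of 22 genes (81.8%) against 7 of 11 without it (63.6%). For GCGGGAA these shares were 2 of 4 genes (50%) and 23 of 29 (79.3%). Of 9 genes with both the CHR core and CCAAT, 7 (77.8%) were at least 2-fold lower, against 18 of the 24 others (75%). Over all compared genes in the promoter table, 13.3% of those with the core and 6.88% of those without it were at least 2-fold lower. The same shares were 9.47% and 6.46% for CCAAT, and 10.5% and 7.37% for GCGGGAA. CENPI and CENPE, both at least 2-fold lower, and DSN1, NSL1, CENPT and MAD1L1, which were not, held neither the CHR core nor CCAAT in this window. PMF1 held CCAAT only, and MIS12 held CCAAT and GCGGGAA. A match to 6 letters is a description of the sequence and does not mark a bound site.

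In what follows, counts are given in the order R-U87MG si-NC, R-U87MG si-HDAC6, U87MG si-NC and U87MG si-*LINC00461*, and a ratio without further words is the log2 ratio after si-*LINC00461*, with its 95% interval in parentheses. CENPA, the histone H3 variant that defines the centromere, had 377, 251, 237 and 49 counts, and its ratio was −2.08 (−2.56 to −1.64). It overlaps SLC35F6 on the same strand, and 4.39% of its 50-base stretches also occur elsewhere among the transcripts. SLC35F6 had 1150 and 1147 counts in the U87MG pair. CENPC, which binds the CENPA nucleosome and reaches out to the MIS12 complex, had 348, 246, 267 and 163 counts and a ratio of −0.52 (−0.81 to −0.24), and 4.36% of its 50-base stretches occur elsewhere, among them in the pseudogene CENPCP1. CENPT, which forms the other link from centromeric DNA to the NDC80 complex, had 445, 377, 752 and 571 counts and a ratio of −0.21 (−0.37 to −0.05). The histone variant was thus more than 2-fold lower, and both linkers were less than 2-fold lower. CENPT was the highest centromere gene in ratio, and in U87MG si-*LINC00461* it was also the highest of the 13 inner kinetochore genes per length, at 24.1 TPM, whereas in U87MG si-NC CENPH was level with it at 29.1 against 28.7 TPM.

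The remaining inner kinetochore genes encode subunits of the constitutive centromere network, which surrounds the CENPA nucleosome. CENPI had 366, 234, 168 and 28 counts and a ratio of −2.38 (−3.03 to −1.81), and CENPU, a subunit that recruits the kinase PLK1, had 796, 498, 355 and 58 counts and a ratio of −2.42 (−2.85 to −2.02). CENPN, which reads the CENPA nucleosome together with CENPL, had 697, 451, 267 and 101 counts and a ratio of −1.21 (−1.56 to −0.88). The gene AC092718.4, which overlaps CENPN on the same strand, had 101, 56, 52 and 12 counts, so reads of the pair may be divided between them. CENPL itself had 367, 299, 104 and 61 counts and a ratio of −0.58 (−1.06 to −0.11). CENPN and CENPL thus lay on either side of 2-fold, with intervals that overlap. CENPM had 194, 164, 64 and 16 counts and a ratio of −1.78 (−2.70 to −1.01), CENPP had 273, 203, 133 and 49 counts and a ratio of −1.24 (−1.76 to −0.77), and CENPW, the histone-fold partner of CENPT, had 128, 92, 63 and 21 counts and a ratio of −1.38 (−2.18 to −0.67). With so few counts, their intervals span over 1 log2 unit or close to it. The ratios of CENPH, CENPK, CENPO and CENPQ lay between −1.86 and −1.47. In all, 10 of the 13 inner kinetochore genes were at least 2-fold lower, with a median of −1.47.

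CENPE and CENPF lie at the outer face of the kinetochore, where CENPE is a kinesin that carries chromosomes along microtubules and CENPF a large coiled-coil protein. CENPF, the most counted gene of the set, had 7396, 4586, 4646 and 746 counts and the lowest ratio of the centromere group, −2.45 (−2.57 to −2.34). CENPE had 2591, 1427, 974 and 209 counts and a ratio of −2.03 (−2.26 to −1.82). Both intervals are narrow and lie wholly beyond 2-fold. Across all 16 CENP genes, 13 were at least 2-fold lower and the median was −1.60.

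The NDC80 complex is a rod of 4 proteins, in which NDC80 and NUF2 hold the microtubule and SPC24 and SPC25 hold the kinetochore. NUF2 (ENSG00000143228) had 581, 369, 313 and 16 counts and the lowest ratio of the 42 genes, −4.06 (−4.93 to −3.38). NDC80 had 691, 454, 323 and 42 counts and a ratio of −2.74 (−3.26 to −2.29). SPC24 had 574, 373, 465 and 75 counts and a ratio of −2.44 (−2.82 to −2.09). The interval of NUF2 did not reach those of NDC80 and SPC24, so the partners were unequally lower beyond counting error in this pair of libraries. Per length, NDC80 and NUF2 were near one another at 18.9 and 19.7 TPM in U87MG si-NC and stood at 2.73 and 1.11 TPM in U87MG si-*LINC00461*. In the R-U87MG libraries they were again near one another, at 47.6 and 42.8 TPM with si-NC and 41.2 and 35.9 TPM with si-HDAC6.

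The MIS12 complex is the stalk between the CENP network and NDC80, and its 4 genes were the group least changed. MIS12 had 684, 483, 283 and 211 counts and a ratio of −0.24 (−0.50 to 0.03). DSN1, the subunit that Aurora B phosphorylates, had 881, 628, 532 and 289 counts and a ratio of −0.69 (−0.90 to −0.48). The interval of MIS12 includes 0, that of DSN1 does not. NSL1 had 362, 254, 445 and 288 counts and a ratio of −0.44 (−0.66 to −0.22). PMF1 had 257, 216, 294 and 243 counts and a ratio of −0.09 (−0.34 to 0.16). PMF1 shares 22.5% of its 50-base stretches with other transcripts, chiefly the readthrough gene PMF1-BGLAP, which had 16, 28, 30 and 25 counts, so the division of reads between them is uncertain. None of the 4 was 2-fold lower, and their median was −0.34.

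KNL1, the scaffold on which checkpoint proteins gather, and its partner ZWINT were counted in the same group but lay far below. KNL1 had 1660, 1050, 951 and 142 counts and a ratio of −2.55 (−2.82 to −2.30). ZWINT had 1872, 1273, 1411 and 251 counts and a ratio of −2.30 (−2.50 to −2.11). Their intervals lie wholly below those of all 4 MIS12 complex genes. ZWINT had the highest level per length of the 42 genes in 3 libraries, at 195, 175 and 125 TPM, and was at 24.7 TPM in U87MG si-*LINC00461*, where SKA2 was highest at 29.6 TPM. Taken over the longest transcript of each gene in place of all exons, ZWINT still led in those 3 libraries, but CENPT, at 34.2 TPM, led in U87MG si-*LINC00461*.

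Among the 7 checkpoint genes, 4 were at least 2-fold lower after si-*LINC00461* and 3 were not. BUB1, the kinase that docks on KNL1, had 2121, 1367, 1177 and 190 counts and a ratio of −2.44 (−2.67 to −2.22). BUB1B, the BUBR1 subunit of the inhibitory mitotic checkpoint complex, had 1597, 980, 872 and 118 counts and a ratio of −2.69 (−2.99 to −2.42). It shares 7.59% of its 50-base stretches with the readthrough gene BUB1B-PAK6, which had at most 1 count. MAD2L1, the MAD2 protein that locks onto CDC20, had 1034, 633, 518 and 113 counts and a ratio of −2.0 (−2.32 to −1.71). TTK, the MPS1 kinase that starts the signal, had 417, 261, 260 and 34 counts and the lowest ratio of the group, −2.73 (−3.31 to −2.23). These 4 genes had intervals wholly beyond 2-fold.

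The other checkpoint genes were lower by less or not lower. BUB3, a WD-repeat protein that brings BUB1 and BUBR1 to KNL1, had 2253, 1531, 1440 and 984 counts and a ratio of −0.36 (−0.48 to −0.24). MAD1L1, the MAD1 protein that presents MAD2 at the kinetochore and also resides at nuclear pores in interphase, had 696, 564, 577 and 528 counts and a ratio of 0.06 (−0.11 to 0.23). ZW10, a subunit of the RZZ complex that also works in vesicle transport, had 338, 207, 139 and 143 counts and a ratio of 0.23 (−0.12 to 0.58). The intervals of MAD1L1 and ZW10 include 0. The order of the checkpoint genes per length differed within the U87MG pair. In si-NC, BUB1 and BUB1B led at 41.2 and 41.1 TPM with BUB3 at 36.6, MAD2L1 at 19.0, MAD1L1 at 16.8, TTK at 12 and ZW10 at 9.81 TPM. In si-*LINC00461*, BUB3 led at 27.7 TPM, followed by MAD1L1 at 17.1, ZW10 at 11.2, BUB1 at 7.36, BUB1B at 6.16, MAD2L1 at 4.60 and TTK at 1.74 TPM. Over the longest transcript, BUB1 at 52.1 TPM led in si-NC, and MAD1L1 at 31.2 TPM stood above BUB3 at 22.2 TPM in si-*LINC00461*, with BUB1 at 9.40 TPM.

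The SKA complex tracks microtubule ends beside NDC80. SKA2 had 1603, 1021, 979 and 398 counts and a ratio of −1.11 (−1.28 to −0.94), and SKA3 had 422, 225, 103 and 23 counts and a ratio of −1.95 (−2.70 to −1.31). Their intervals do not overlap. SKA2 shares 4.06% of its 50-base stretches with other transcripts, among them the pseudogene SKA2P1.

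All 6 genes of the passenger and shugoshin group were more than 2-fold lower after si-*LINC00461*, with a median of −2.35. AURKB, the Aurora B kinase, had 685, 420, 311 and 45 counts and a ratio of −2.59 (−3.09 to −2.15). INCENP, the scaffold that activates it, had 1707, 1192, 1428 and 427 counts and the highest ratio of the group, −1.55 (−1.71 to −1.40). BIRC5, or survivin, which reads phosphorylated histone H3, had 2024, 1333, 849 and 171 counts and a ratio of −2.12 (−2.37 to −1.89). The interval of INCENP lies above those of both AURKB and BIRC5. CDCA8, or borealin, the remaining subunit, had a ratio of −2.59 (−2.94 to −2.26), close to that of AURKB. In U87MG si-NC, INCENP was the most abundant of the 4 passenger genes per length, at 67.4 TPM, and in U87MG si-*LINC00461* it stood at 22.3 TPM, with BIRC5 at 10.5, CDCA8 at 7.86 and AURKB at 4.69 TPM. In R-U87MG si-NC the order was different, with BIRC5 at 131, CDCA8 at 102, INCENP at 94.6 and AURKB at 75.7 TPM. INCENP and BIRC5 also led these U87MG and R-U87MG libraries, respectively, over the longest transcript, while AURKB at 101 TPM then came second in R-U87MG si-NC. SGO1, the shugoshin that protects cohesin at mitotic centromeres, had 536, 345, 266 and 28 counts and the lowest ratio of the group, −3.04 (−3.68 to −2.50). SGO2 had a ratio of −1.61 (−1.84 to −1.39), above and apart from that of SGO1.

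After si-HDAC6 in R-U87MG the same genes differed by little. None of the 40 genes reached 2-fold (0 lower and 0 higher), a size passed by 0.747% of 13120 genes in the lower and 0.694% in the higher direction. Small differences in the lower direction were nevertheless common. In all, 34 genes had a ratio below 0, as did 51.1% of all genes, and for 26 the interval lay below 0, as it did for 16.4% of all genes, while for 0 it lay above 0. The median log2 ratio was −0.22, against −0.0057 for all genes. The lowest were CENPQ at −0.59 (−0.92 to −0.26), with 229 and 116 counts, CENPK at −0.54 (−0.74 to −0.35), with 641 and 335 counts, SKA3 at −0.51 (−0.76 to −0.28) and CENPE at −0.47 (−0.56 to −0.38). The highest were CENPT and CENPM, both at 0.15, with intervals of −0.05 to 0.35 and −0.16 to 0.46.

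By group, the median after si-HDAC6 was −0.15 for the CENP genes, −0.23 for NDC80, −0.11 for MIS12 and KNL1, −0.28 for the checkpoint, −0.39 for the 2 SKA genes and −0.23 for the passengers and shugoshins. The 4 MIS12 complex genes had intervals that include 0, with ratios of −0.10 for DSN1, −0.11 for MIS12, −0.12 for NSL1 and 0.14 for PMF1. In contrast to the *LINC00461* comparison, NUF2 did not stand apart from its partners, with −0.26 (−0.46 to −0.07) beside −0.21 for NDC80 and −0.23 for SPC24. ZW10, the highest of the set after si-*LINC00461*, was at −0.31 (−0.57 to −0.06) here. Both siRNA comparisons use their own cell line and control library, and whether their responses differ was not tested.

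Between the 2 control libraries, the genes were higher in R-U87MG than in U87MG. Of 40 genes, 16 were higher by 2-fold or more and 0 lower by as much, where 11.2% of 13349 genes were higher and 15.0% lower by 2-fold or more. For 36 genes the interval lay above 0, as it did for 39.4% of all genes. The median log2 ratio (R-U87MG over U87MG) was 0.86, against 0.019 for all genes. This comparison depended on the scaling, since scaling by total counts moved the median of all genes to 0.28 and that of the 40 genes to 1.13. Under total counts 23 of the 40 genes were at least 2-fold higher, and of all genes 18.0% were higher and 11.2% lower by as much. Line, drug exposure and library cannot be told apart here, and both knockdown comparisons share 1 of these control libraries each.

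SKA3 had the largest ratio between the controls, 2.03 (1.72 to 2.36), from 422 counts in R-U87MG and 103 in U87MG. CENPL at 1.82 (1.5 to 2.15), CENPM at 1.60 (1.19 to 2.03), CENPE at 1.41 (1.31 to 1.52) and CENPN at 1.39 (1.18 to 1.60) came next. The rest of the 16 were MIS12, ZW10, BIRC5, CENPU, AURKB, CENPI, NDC80, CENPP, CENPW, SGO1 and MAD2L1, with ratios from 1.28 down to 1.0. MIS12 and ZW10, both at 1.28, were among these although their intervals include 0 after si-*LINC00461*. In the other direction, CENPT at −0.75 (−0.93 to −0.58) and NSL1 at −0.29 (−0.50 to −0.09) had intervals below 0, and PMF1 was at −0.19 (−0.44 to 0.06). CENPT, with 445 counts in R-U87MG and 752 in U87MG, was thus both the lowest member between the controls and among the 10 that were less than 2-fold lower after si-*LINC00461*.

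Neighbouring parts of the machinery were described from further lists. Over all genes compared, 8.17% were at least 2-fold lower after si-*LINC00461* and 0.747% after si-HDAC6. Of 11 other kinetochore genes, 4 were at least 2-fold lower after si-*LINC00461* and 0 after si-HDAC6, with medians of −0.84 and −0.13. The lowest after si-*LINC00461* was KIF2C, a kinesin that depolymerises microtubules at centromeres, with 889 and 90 counts in the U87MG pair and a ratio of −3.11 (−3.45 to −2.80). The highest was BOD1, a phosphatase regulator, at 0.17 (0.01 to 0.34). Of the 7 genes of the checkpoint target and mitotic kinases, 6 were at least 2-fold lower. PLK1, the Polo-like kinase, was lowest at −2.82 (−3.03 to −2.62), and MAD2L1BP, which with TRIP13 dismantles the checkpoint complex, was highest at 0.11 (−0.14 to 0.36). CDC20, the activator that the checkpoint sequesters, had 1968, 1305, 773 and 102 counts and a ratio of −2.73 (−3.05 to −2.44). After si-HDAC6, 0 of these 7 genes were at least 2-fold changed.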

How the data were processed

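The values deposited are estimated counts that the authors made per Ensembl gene, multiplied by a factor for each library. Per the submitters' processing notes, bcl2fastq, Trimmomatic 0.36 and HISAT2 were used with GRCh38.p13. The counting program, and whether it used the strand of the strand-specific libraries, is not given in the sources used here. Between 93.4% and 94.1% of values lay within 0.02 of a whole multiple of the factor, so values were divided by it and rounded. CENPA and PMF1 were not whole in some library. The design had foreseen counts, and no count model of the difference between conditions was fitted. The binomial intervals treat the rounded values as exact counts.

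Ratios were taken of TMM-normalized counts (edgeR 4.0.16, R 4.3.3) plus 0.5, for genes with a mean of at least 1 CPM, and such ratios understate changes of genes with few counts. Intervals are Clopper-Pearson at 95%. TPM used the union of a gene's exons. A floor of 3 counts corresponds to between 0.150 and 0.238 CPM. With 1 library per condition no test was made. A self-check used simulated counts with counting noise only and folds set beyond 2-fold. For si-*LINC00461*, si-HDAC6 and the controls in turn, 188 of 190, 195 of 197 and 190 of 192 changed genes were called. So were 12, 45 and 14 unchanged genes. The self-check does not bear on smaller ratios or on the spread between cultures. Gene names came from GENCODE 29 (57888 of 58226 IDs matched). All 42 genes are accounted for. Counts were printed for the genes that found a complex, the extremes of each group, those at least 2-fold changed after si-HDAC6 or between controls, and those less than 2-fold lower after si-*LINC00461*. The summary of the list of CENPA deposition genes is not reported here. The genes and lists were chosen with earlier results of these data known. Alternatives were DESeq2 1.42.0 size factors and the others named in the closing section. Python 3.11.15, pandas 2.3.3 and scipy 1.17.1 were used.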

Additional observations from a re-analysis of the deposited data

How the results depend on the processing

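The median log2 ratio of the genes and their number at least 2-fold changed were recomputed under total counts, DESeq2 size factors, upper-quartile scaling, TMM over 4 libraries, TMM without the listed cell-division genes, pseudocounts of 0.1 and 5, thinning to 12596072 counts, other filters, other fold thresholds and the values as deposited. After si-*LINC00461* the median ranged from −2.0 to −1.70 and the number at least 2-fold lower, or past the other threshold, from 23 at 3-fold (3.354% of all genes) to 31 at 1.5-fold (16.8%) and 31 with no filter (18.3%). After si-HDAC6, 1 gene was at least 2-fold higher with no filter (SKA1, with 1 count; 11.1% of all genes) and 1 was lower at 1.5-fold (2.515%). Between the controls the median was 1.13 under total counts and 1.13 with the values as deposited. There, 31 genes were higher and 1 lower at 1.5-fold (23.05% and 25.1% of all genes), 3 were higher at 3-fold (3.925%) and 7 had intervals wholly beyond 2-fold higher (6.34%). Among single genes, 64 values moved by more than their interval allows, all between the controls under total counts or the values as deposited. No median and no gene past 2-fold changed sign under these alternatives. Per length of the longest transcript, the median level in the 4 libraries was 45.8, 41.8, 25.5 and 5.96 TPM in the order of the report. In the window from 100 bases before the start, 15 of the 35 genes (42.9%, against 8.46% of all genes in the table) held the CHR core, 17 (48.6%, against 25.3%) CCAAT and 4 (11.4%, against 4.20%) GCGGGAA. No paired analysis was possible because each condition has 1 library. Depth limits SPC25, SKA1 and genes with few counts, such as NUF2 and CENPM.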

Other observations

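Genes of other steps of chromosome duplication and segregation were described in the same way, beside 8.17% of all genes at least 2-fold lower after si-*LINC00461* and 0.747% after si-HDAC6. Of 15 replication genes, 13 were at least 2-fold lower after si-*LINC00461*, with a median log2 ratio of −2.0, and 0 after si-HDAC6, with a median of −0.21. The lowest was GINS2, a subunit of the replicative helicase, with 323 and 34 counts in the U87MG pair and a ratio of −3.04 (95% counting interval −3.62 to −2.55), and the highest was GINS3, a subunit of the same complex, with 213 and 172 counts and a ratio of −0.12 (−0.42 to 0.18). Of 13 condensin and cohesin genes, 6 were at least 2-fold lower after si-*LINC00461*, with a median of −0.99, and 0 after si-HDAC6, with a median of −0.28. NCAPG, a subunit of condensin I, was lowest at −2.57 (−2.88 to −2.29), and SMC3, a cohesin ATPase, was highest at −0.17 (−0.29 to −0.06).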
